A study of Arabidopsis thaliana with 6 samples.

Results

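The 3 REGULATORS OF AXILLARY MERISTEMS genes, MYB37 (RAX1, AT5G23000), MYB38 (RAX2, AT2G36890) and MYB84 (RAX3, AT3G49690), and the late meristem identity gene MYB17 (LMI2, AT3G61250) were examined for binding by LEAFY (LFY) and by LFYTERE, a LFY protein altered in its oligomerization domain. These 4 genes, of 27444 protein-coding genes on the 5 chromosomes, were chosen by name, with earlier results of these data known. Shares over all genes are therefore set beside them as a description only. Every bound region whose midpoint lay inside one of them or within 3 kb was taken, and, for genes without one, the nearest region. This gave 1 of 176 regions bound in p35S:LFYTERE and 6 of 1954 regions bound in p35S:LFY.

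Chromatin immunoprecipitation followed by sequencing was performed on whole 15-day-old A. thaliana seedlings of p35S:LFYTERE (line CA29-17), p35S:LFY (line CA26-15) and wild-type Col-0, with 2 biological replicates each. In both transgenic genotypes the constitutive 35S promoter drives a LFY cDNA, so the protein is made throughout the seedling, outside the young floral meristems where LFY normally acts. In LFYTERE the substitutions T75E and R112E alter the surfaces through which SAM domains contact each other. Each transgenic genotype is represented by 1 line. The antiserum was raised against the C-terminal part of LFY, which both transgenes encode. The Col-0 libraries served as controls for both lists, which are therefore not independent.

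LFY is the plant-specific transcription factor that turns new lateral meristems into flowers, and its N-terminal SAM domain lets the protein assemble into oligomers. The RAX genes encode R2R3-type MYB transcription factors that act, partly redundantly, in leaf axils to start axillary meristems, from which side branches grow. RAX1 is also a known LFY target, through which LFY can stimulate meristem growth. MYB17 encodes another R2R3 MYB factor, which works downstream of LFY to promote floral meristem identity, in part by activating AP1.

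A region of either list carries a pair of values made by the authors. The rank orders the regions within a list, with 1 as the best. The coverage fold reduction (CFR) is a ratio of normalized coverage in the region, p35S:LFY over p35S:LFYTERE (and not the reverse), so that a higher CFR means a lower relative coverage by LFYTERE. Replicates were fused before CFR was computed, so each region has a single CFR with no standard deviation, and no test between genotypes was possible. The paper reports that very low p35S:LFYTERE coverage made CFR very high or infinite in some regions. High CFR values are thus sensitive to small changes in that coverage, which the lists do not give. Regions were counted as shared when they overlapped a region of the other list by at least 1 bp. Sharing and CFR both depend on p35S:LFYTERE coverage, so a lower CFR in shared regions is in part built in. A region missing from a list failed the authors' threshold in that genotype, which does not show that the protein was absent there. The p35S:LFY libraries were sequenced more deeply than those of p35S:LFYTERE, and the part of depth in the length of either list was not tested.

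Of the 4 genes, 1 had a p35S:LFYTERE region within 3 kb and 3 had a p35S:LFY region. Over all protein-coding genes, 1.49% had a p35S:LFYTERE region within 3 kb and 13.5% had a p35S:LFY region. MYB37 was surrounded by 3 p35S:LFY regions, MYB17 had a close pair on one side, MYB38 had a single region, and MYB84 had none. Only MYB17 had a region called in p35S:LFYTERE. A wider window of 10 kb added no region to any of the 4 genes.

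**Figure D1:**
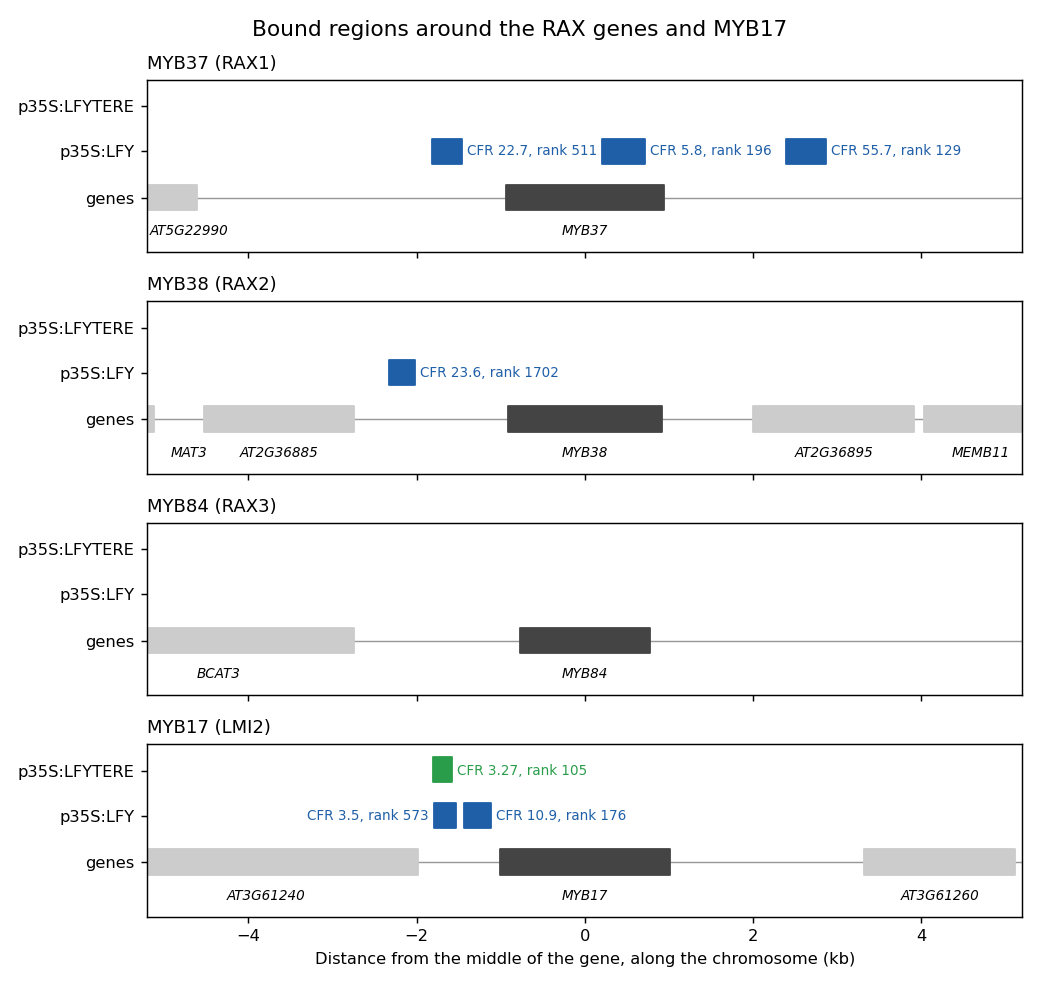
Bound regions around each gene, plotted by distance in kb from the middle of the gene along the chromosome, with p35S:LFYTERE regions in green above p35S:LFY regions in blue and protein-coding genes of the TAIR10.1 table in grey below. MYB37 has 3 p35S:LFY regions, the highest with a CFR of 55.7, MYB38 has 1, MYB84 has none in the window shown, and at MYB17 the only p35S:LFYTERE region lies over the one of lower CFR in a pair of p35S:LFY regions.

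MYB37, whose product starts axillary meristems during vegetative growth, had 0 p35S:LFYTERE regions and 3 p35S:LFY regions within 3 kb. Among all genes, 0.281% had 3 or more p35S:LFY regions within that distance. The 3 regions spanned 4679 bp of TAIR10 chromosome 5 and were evenly spaced, with 1663 and 1677 bp between them. MYB37 was the nearest protein-coding gene of each, and 14 of the 77 genes with 3 or more regions were likewise nearest to each of theirs. The region outside MYB37 on the side of MAM1, a gene of methionine-derived glucosinolate synthesis, lies at chr5:7699473-7699938, between 1 and 3 kb from the gene. It had rank 129, better than 93.4% of the p35S:LFY list, and a CFR of 55.7, higher than 98.6% of it. The region inside the gene (chr5:7697287-7697795) had rank 196 but a CFR of 5.80, higher than only 35.5% of the list. The region on the side of AT5G22990, within 1 kb of the gene (chr5:7695260-7695623), had rank 511 and a CFR of 22.7, higher than 89.8% of the list. Both outer regions of MYB37 thus had a high CFR and the one inside the gene had not, although all 3 ranked in the better part of the list. No p35S:LFYTERE region was found within 10 kb of MYB37 or MYB38.

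Few regions combined a rank and a CFR like those of the MYB37 region near MAM1. How low the p35S:LFYTERE coverage was in that region cannot be read from the lists. Of 34 p35S:LFY regions with a CFR above 50, the median rank was 1054, and 1 had a better rank than this MYB37 region. That one, at rank 98 with a CFR of 66.5, lies near AT5G44980, AT5G44990 and AT5G45000. By the distance between percentiles of rank and CFR, these were also the 3 genes whose best-ranked region was most like that of MYB37 among 3692 genes (1.63 percentile points). They share that 1 region, so they are not separate matches.

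The region inside MYB37 showed a different combination. Of the 200 best-ranked p35S:LFY regions, 54 had a CFR at or below 5.80, and 32 of those 54 were shared with p35S:LFYTERE. The MYB37 region was not among the shared ones. Regions inside protein-coding genes had a median CFR of 7.01 over 853 regions, against 8.04 outside genes, and the MYB37 region exceeded 39.5% of those inside genes. Its CFR was thus within the ordinary range for a region inside a gene. The 32 shared regions mostly had a CFR well below 5.80. Most of the 54 with a CFR close to 5.80 were not shared, so the MYB37 region was not unusual among them in being unshared.

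The 3 MYB37 regions differed from each other by more than most neighbours did. The highest CFR was 9.61 times the lowest, against a median of 2.74 over the 77 genes with 3 or more regions. Of these genes, 4 had a larger ratio, 20 had a better best rank and 1, the B-box gene BBX31, had a higher top CFR. In 57 of the 77, no region was shared, as for MYB37. Neighbouring genes share regions among these 77, so they are not independent of each other. Between consecutive regions, the CFR ratio was 3.91 from the AT5G22990 side to the inside region and 9.61 from there to the MAM1 side. Over 281 pairs of consecutive p35S:LFY regions within 3 kb the median ratio was 1.77, and these ratios exceeded 86.5% and 98.2% of the pairs.

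**Figure D2:**
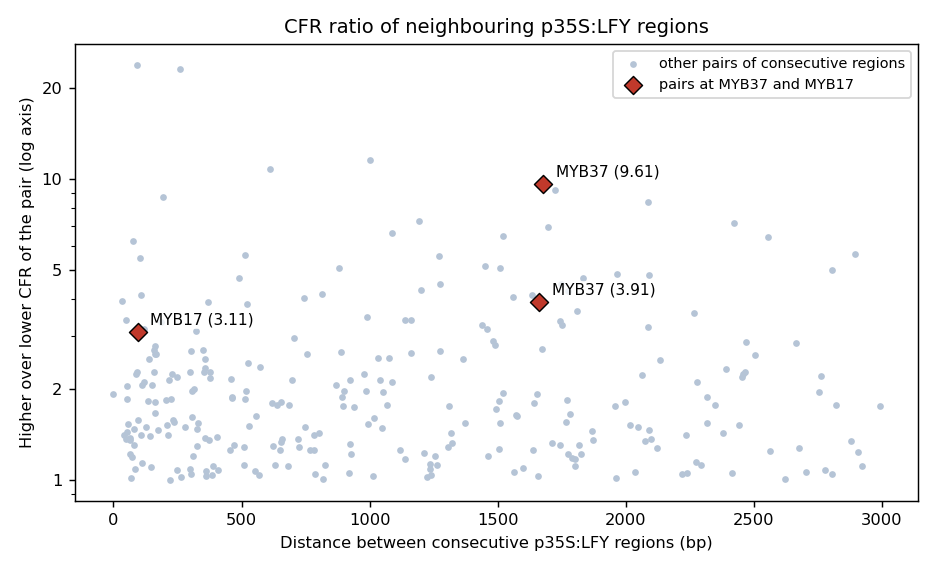
Ratio of the higher to the lower CFR (log axis) for each pair of consecutive p35S:LFY regions, against the distance between them in bp, with the pairs at MYB37 and MYB17 as red diamonds and all other pairs as grey points. The second MYB37 pair, at 9.61, lies above nearly all other pairs, whereas the first MYB37 pair (3.91) and the MYB17 pair (3.11) lie above the median of 1.77 but within the spread.

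MYB38, which acts with MYB37 in axillary meristem formation, had 0 p35S:LFYTERE regions and 1 p35S:LFY region within 3 kb. This region (chr2:15484209-15484519) is 311 bp wide and lies between AT2G36885 and MYB38. It had rank 1702, better than only 12.9% of the list, but a CFR of 23.6, higher than 90.7% of it. The CFR resembled that of the MYB37 region near AT5G22990 (22.7), while the rank placed it far down the list. The region is closer to AT2G36885 than to MYB38. With each region assigned to its nearest gene only, with a window of 1 kb, or with the best 1000 regions only, MYB38 had no region. The genes with the most similar best-ranked region were AT2G26390, ARD3 and AT2G26380, which share a region of rank 1674 and CFR 23.4 (1.45 percentile points).

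MYB84, the third RAX gene, which overlaps in function with the other two, had 0 p35S:LFYTERE regions and 0 p35S:LFY regions within 10 kb. Its nearest p35S:LFYTERE region (chr3:18706732-18707151, rank 124, CFR 7.27), between AT3G50400 and OBP1, lies far beyond 10 kb. It is not counted as a region of MYB84. The p35S:LFY region nearest to MYB84 (chr3:18415547-18416038) also lies beyond 10 kb, between WDR5a and BAM2, with rank 1430 and a CFR of 5.86. MYB84 was thus the one gene of the 4 without a region in its neighbourhood. Genes were also divided into 10 equal classes by the length of their flanking intergenic DNA, since longer flanks leave more room for regions. MYB84 stands in class 9, counted from the shortest, where 16.4% of genes had a p35S:LFY region. MYB37 stands in class 10, where 11.4% had a region and 0.255% had 3 or more, and MYB38 and MYB17 stand in class 7, where 15.5% had one. These shares lie on either side of the 13.5% over all genes.

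MYB17 had 1 p35S:LFYTERE region and 2 p35S:LFY regions, all on the side of AT3G61240 and within 1 kb of MYB17. MYB37 and MYB17, 2 of the 4 genes, had 2 or more p35S:LFY regions within 3 kb, as did 1.89% of all genes. The p35S:LFYTERE region (chr3:22669940-22670165) had rank 105 and a CFR of 3.27, higher than 73.9% of that list, whose median was 2.75. It overlapped 1 of the p35S:LFY regions (chr3:22669943-22670210, rank 573, CFR 3.50) by 223 bp, which is 98.7% of the p35S:LFYTERE region and 83.2% of the p35S:LFY region. LFYTERE was thus called at the same place as LFY. This was usual for that list: of its 176 regions, at least 163 overlapped a p35S:LFY region. Over 163 regions that overlap a single region of the other list, the median ratio of CFR over p35S:LFY bounds to CFR over p35S:LFYTERE bounds was 1.06, and that of MYB17 was 1.07.

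The second MYB17 region in p35S:LFY (chr3:22670305-22670628) starts after a gap of 94 bp on the side of the gene. It had rank 176, better than 91.0% of the list, and a CFR of 10.9, higher than 67.7% of it. No p35S:LFYTERE region overlapped it, although it was the better-ranked of the pair in p35S:LFY. The regions of the pair thus differed 3.11-fold in CFR over a distance of less than their own widths, 268 and 324 bp. Of 93 pairs of consecutive regions within 500 bp, 84.9% had a smaller ratio, and the median was 1.83. In 15 of these pairs exactly 1 region was shared, and it had the lower CFR in 12 and the better rank in 11. At MYB17 the shared region had the lower CFR, as in most such pairs, but the worse rank. The lower CFR of shared regions is in part built in, since both measures use p35S:LFYTERE coverage. The genes with a best-ranked region most like that of MYB17 were AT4G32340, AT4G32330 and AT4G32342, around 1 region of rank 166 and CFR 11.0 (1.05 percentile points).

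Shared regions had low CFR, in part by construction, but not every region of low CFR was shared. Of 215 p35S:LFY regions with a CFR of 3.50 or less, 120 were shared and 95 were not. The shared regions, 173 in all or 8.85% of the p35S:LFY list, had a median CFR of 2.99 and a median rank of 538, and none exceeded 9.62. The shared MYB17 region, at rank 573, was close to that median rank and had a higher CFR than 68.8% of shared regions. It is assigned to MYB17 by distance only, since AT3G61240 is its nearest gene. With the best 88 p35S:LFYTERE regions, or with each region given to its nearest gene, no p35S:LFYTERE region was left at MYB17.

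**Figure D3:**
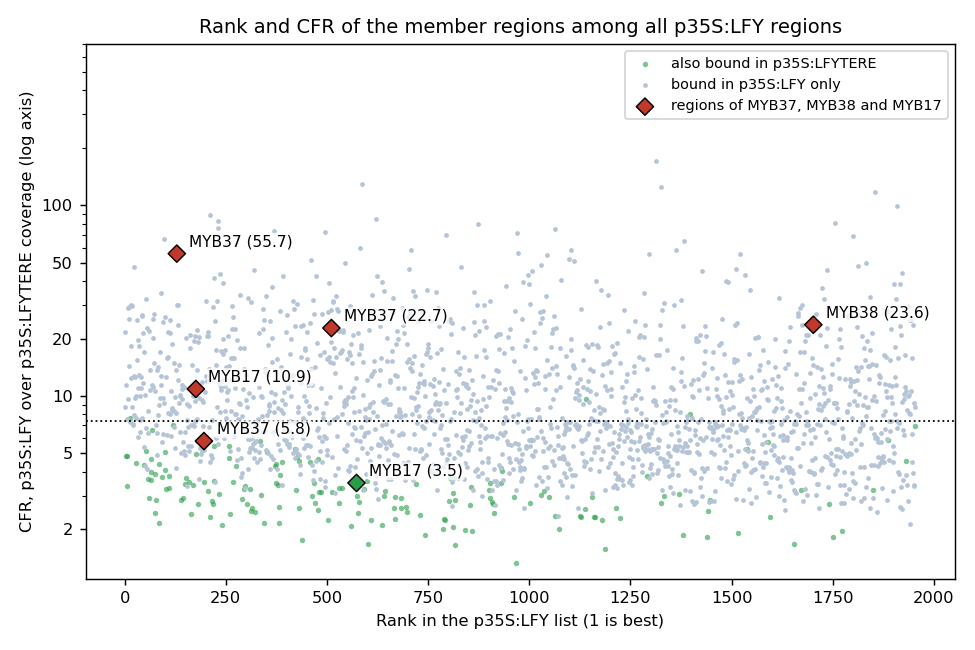
CFR (log axis) against rank for the p35S:LFY regions, with regions also bound in p35S:LFYTERE in green, all others in grey-blue and the 6 regions of MYB37, MYB38 and MYB17 as diamonds with their CFR in brackets; the dotted line is the median CFR of 7.40, and 2 regions with a CFR above 300 are not drawn. The shared MYB17 region (CFR 3.50) lies among the green points, and the MYB37 region with a CFR of 55.7 lies above nearly all regions of similar rank.

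Across the 4 genes, CFR ran from 3.50 to 55.7, a 15.9-fold range, with a median of 16.8 over 6 regions beside 7.40 over all p35S:LFY regions. A CFR above 10 was found for 4 of the 6, beside 35.3% of all regions, and a CFR above 20 for 3 of the 6, beside 13.5% of all. These 6 regions belong to only 3 genes, 3 of them to MYB37, so the median mostly describes that gene. Each gene with more than 1 region, MYB37 and MYB17, had regions on both sides of the overall median.

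Within the MYB family, 3 of the 4 regions near RAX genes were among the 5 of highest CFR. These were both outer regions of MYB37 and the MYB38 region, which is closer to AT2G36885, while MYB84 had no region. Of 121 other MYB genes, 2 had a p35S:LFYTERE region within 3 kb, beside 1.49% of all genes. Of the same 121, 25 (20.7%) had a p35S:LFY region, beside 13.5% of all genes, and 4 of them had 2 or more. Their 30 p35S:LFY regions had a median CFR of 7.10 (2.93 to 50.7). Among the 36 regions of the family, the MYB37 region of CFR 55.7 came 1st by CFR and 3rd by rank. The MYB38 region came 4th by CFR and 34th by rank, and the MYB37 region near AT5G22990 came 5th by CFR, whereas the region inside MYB37 came 27th. The regions of MYB17 came 15th and 34th by CFR and 6th and 16th by rank, so each MYB17 region placed higher by rank than by CFR.

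Among the other MYB genes, the best ranks and the highest CFR belonged mostly to different genes. A region inside MYB12, a regulator of flavonol synthesis, had rank 12 and a CFR of 14.3, one inside MYB111 had rank 123 and a CFR of 6.86, and one inside MYB11 had rank 144 and a CFR of 2.93. MYB111 and MYB11 are close relatives of MYB12 with the same role. MYB11, like MYB17, was shared with p35S:LFYTERE, where its region had a CFR of 2.95. A region within 1 kb of MYB48 (rank 933, CFR 4.06) was shared too. By rank, a region near MYB59 came next after that of MYB11, at rank 169 with a CFR of 7.07. MYB28, a regulator of aliphatic glucosinolate synthesis, was the only MYB gene besides MYB37 with 3 p35S:LFY regions, of CFR 50.7 (rank 1111), 15.7 (rank 263) and 14.9 (rank 1432). MYB34 and MYB51, regulators of indole glucosinolate synthesis, had regions with CFR of 27.9 (rank 1886) and 18.8 (rank 560), and a region near MYB102 had a CFR of 22.6 (rank 274). The MYB51 region is closer to AT1G18560 than to MYB51.

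Both regions found near the closest relatives of the 4 genes had a CFR below the overall median. Of MYB36, MYB68 and MYB87, which group with the RAX genes, and MYB16 and MYB106, which group with MYB17, 0 of 5 had a p35S:LFYTERE region and 2 of 5 had a p35S:LFY region. Over all genes the shares were 1.49% and 13.5%. These relatives are also counted among the 121 other MYB genes. MYB87 had a region of rank 322 and CFR 5.70. MYB16, a regulator of petal epidermal cell shape and cuticle formation, had one of rank 884 and CFR 2.98, which is close to the median of shared regions although it was not shared. That region is closer to AT5G15320 than to MYB16.

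Other genes of axillary meristems and organ boundaries were counted beside the RAX genes. Of 16 such genes, 0 had a p35S:LFYTERE region and 4 had a p35S:LFY region, each of them 1. Over all genes the shares were 1.49% and 13.5%. CUC3, a NAC factor that separates organs and allows axillary meristems to form, had a region of CFR 40.4 (chr1:28674904-28675267, rank 1079), higher than 97.2% of the list. Its relative CUC2 had a region inside the gene with a CFR of 12.6 (rank 1904). SPL9, an SBP factor that promotes adult development and flowering, had a CFR of 5.95 (rank 1319), and ARR7, a type-A regulator that dampens the cytokinin response, had 5.61 (rank 1574). The region near SPL9 has its midpoint inside another gene, AT2G42220. The 4 regions had a median CFR of 9.29, and all had a worse rank than each MYB37 region, the worst of which was 511. The genes of this list without a region within 3 kb included LAS, the GRAS factor needed for axillary meristem formation, as well as CUC1, STM, REV and WUS.

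Of the 3 floral meristem identity genes set beside MYB17, AP1 was bound, and CAL and LMI1 had no region of either list within 3 kb. Over all genes, 1.49% had a p35S:LFYTERE region, 13.5% had a p35S:LFY region and 0.281% had 3 or more p35S:LFY regions. AP1, the floral identity gene that both LFY and MYB17 activate, had 1 p35S:LFYTERE region (rank 48, CFR 2.06) and 3 p35S:LFY regions. The shared AP1 region had rank 140 and a CFR of 2.86, and the others had CFR of 18.9 (rank 1475) and 15.4 (rank 1830). The region of rank 1830 is closer to AT1G69100 than to AP1. AP1 thus resembled MYB17 in having both a shared region of low CFR and unshared ones of higher CFR. This is in part built in and is not particular to these genes. Of the 15 pairs within 500 bp with exactly 1 shared region, the shared one had the lower CFR in 12. At AP1 the shared region had the best rank of its gene, whereas at MYB17 it had the worse rank.

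**Figure D4:**
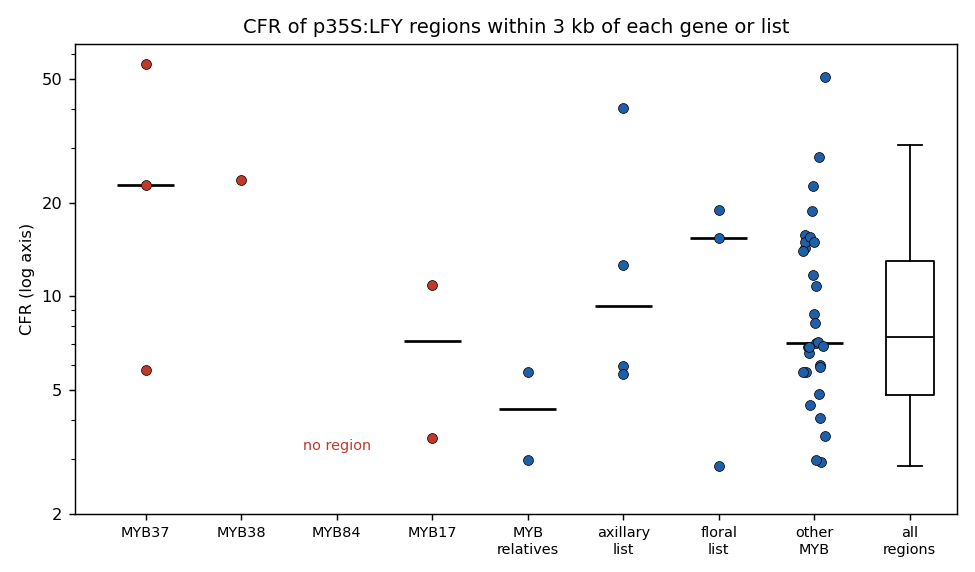
CFR (log axis) of every p35S:LFY region within 3 kb of MYB37, MYB38, MYB84 and MYB17 (red) and of the genes of 4 comparison lists (blue), with 1 point per region and a bar at the median; the box at the right gives the median and quartiles of all p35S:LFY regions with whiskers at the 5th and 95th percentiles, leaving out 2 regions above 300. The top MYB37 region (55.7) lies above every other point, MYB84 has no region, and relatives of the 4 genes (5.70 and 2.98) lie below the overall median of 7.40.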

How the data were processed

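Whole seedlings of p35S:LFYTERE, p35S:LFY and Col-0 were profiled by ChIP-seq in 2 biological replicates each. The authors mapped reads and removed duplicates with SHORE (build TAIR10, per the submitters' processing notes), called peaks with the same suite and kept those passing their false discovery rate limit in all 4 comparisons of replicates with controls. Within each genotype they scaled one replicate to the other by regression over its most significant peaks, fused the replicates, and scaled genotypes over background peaks of Col-0. The rank in the deposited lists is the authors' score with no unit, which orders regions within a list. CFR is the authors' ratio of coverage and was taken as deposited. CFR and rank are the authors' own comparison values and hold what is described here. Depth per replicate cannot be read from these lists, so no interval between replicates was computed for CFR or rank. No column of the lists belonged to an unmapped sample (0 columns).

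Regions were assigned to genes by midpoint with Python 3.11.15, numpy 2.4.6 and pandas 2.3.3 (figures: matplotlib 3.10.9). The RefSeq gene table of TAIR10.1 has no strand or exons and gave names and neighbours only. All coordinates printed are TAIR10 coordinates of the deposited lists, counted from 1. Of p35S:LFY midpoints, 56.3% lay outside genes, against 35.9% to 45.5% after shifts of 1000 to 10000 bp in either direction. Assignment, nearest gene and overlap were tested on simulated data. The 4 genes and the comparison lists were chosen with earlier results of these data known. Named were the 4 genes, the neighbours of their regions, list genes with a region, other MYB genes with the 5 best ranks or 5 highest CFR, and the 3 genes most alike by percentiles of rank and CFR. The MYB28 region of rank 1432, MYB48, BBX31, the genes nearest to regions of the comparison genes and the list genes without a region were named after their values were seen. Alternatives were windows of 1 and 10 kb, any overlap with the window, the nearest gene only, the best 1000 and best 88 regions, stricter overlap, and other region sets for percentiles. Genome, promoter and protein sequences were not used here, so the planned motif and protein comparisons were not run.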

Additional observations from a re-analysis of the deposited data

How the results depend on the processing

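The p35S:LFY regions of the 4 genes numbered 6, and 4 to 6 under every alternative, and MYB37 and MYB17 had a p35S:LFY region in each. Other values moved with the definition. Regions at MYB17 in p35S:LFYTERE were 0 with the nearest gene only and 0 with the best 88 regions, which also left 0 shared regions. Of all genes, 0.845% had a p35S:LFYTERE region and 7.66% a p35S:LFY region with a 1 kb window, 3.89% and 31.5% with a 10 kb window, 0.630% and 6.40% with the nearest gene only, and 0.794% and 7.51% with the best 88 and best 1000 regions. Of the 24 list genes, 7 had a p35S:LFY region, against 3 with the 1 kb window, 11 with the 10 kb window and 3 with the best 1000 regions. Of 28 percentiles recomputed over other region sets, 16 stayed within the binomial confidence interval of the main value. That interval treats the regions of a list as independent draws and measures no spread between replicates. The other sets are parts of the same list. CFR percentiles moved by at most 3.16 points and rank percentiles by up to 28.0, the latter by construction when only the best 1000 regions were kept. The CFR of the shared MYB17 region was 3.27 over the p35S:LFYTERE bounds. No paired analysis was possible because the lists hold fused replicates, and for the same reason no replicate could be left out.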
